A study of Mus musculus with 13 samples.

Results

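The zona pellucida and oocyte-secreted factor genes analysed here are Zp1, Zp2, Zp3, Gdf9, Bmp15, Oosp1, Fgf8 and Bmp6, which are 8 of the 49585 genes that were summed from the deposited transcripts. They are listed by name, as the 3 genes of the mouse zona and 5 genes for proteins that oocytes secrete, and the rule for the list uses no measured value. The genes were, however, chosen with earlier results of these data known. The samples were oocytes from ovaries of CD-1 mice at postnatal day 5 that had been kept in culture and given 0.5 Gy or 0.2 Gy of gamma irradiation, and RNA was sequenced at 5 times, which were 0 and 1 h as well as 2.5, 4 and 6 h. The 0.5 Gy dose has 8 libraries, with duplicates for 0, 1 and 4 h and single libraries for 2.5 and 6 h, and the 0.2 Gy dose has 5, a single one for each time, which makes 13 in all. In the study's methods the 0 h ovaries were taken before irradiation, and the label of these samples counts them as 0 h after it. All groups share the strain, the age, the culture and the dissolution of the ovary in trypsin, and in the study's methods the ovaries of each time point were pooled. The labels give each library a generation: replicate 1 at 0.5 Gy is of the first, replicate 2 together with the 2.5 and 6 h libraries is of the second, and every 0.2 Gy library is of the third. Dose and the third generation therefore cannot be told apart. The labels do not say that replicates came from separate animals, so p-values measure the spread between these libraries, which may be technical.

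The zona pellucida is the glycoprotein coat of the oocyte. In the mouse it is built from ZP1, ZP2 and ZP3. Expression of their genes rises when an oocyte leaves the dormant primordial follicle and starts to grow, under the transcription factor FIGLA. Growing oocytes also secrete ligands of the transforming growth factor beta superfamily, GDF9, BMP15 and BMP6, and the fibroblast growth factor FGF8, which act on the granulosa cells around them through serine/threonine kinase receptors with SMAD proteins and through tyrosine kinase receptors. At postnatal day 5 a mouse ovary holds mostly primordial follicles and a smaller number of oocytes that have begun to grow.

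In the GENCODE annotation of GRCm38, the 8 genes are spread over 6 chromosomes. Of the zona genes, Zp1 (ENSMUSG00000024734) lies on chromosome 19 at 10914287 to 10920632, minus strand. Zp2 (ENSMUSG00000030911) lies on chromosome 7 at 120126772 to 120145291, minus strand, and Zp3 (ENSMUSG00000004948) lies on chromosome 5 at 135980099 to 135988624, plus strand. Of the secreted factors, Gdf9 (ENSMUSG00000018238) lies on chromosome 11 at 53431023 to 53437904, plus strand, and Bmp15 (ENSMUSG00000023279) lies on chromosome X at 6314107 to 6320721, minus strand. Oosp1 (ENSMUSG00000041857) lies on chromosome 19 at 11667460 to 11691150, minus strand, on the same chromosome as Zp1 and Fgf8. Fgf8 (ENSMUSG00000025219) lies on chromosome 19 at 45736798 to 45742915, minus strand. Bmp6 (ENSMUSG00000039004) lies on chromosome 13 at 38345107 to 38500302, plus strand, where Txndc5 and 4930579J19Rik overlap it on the minus strand. The other 7 genes overlap no annotated gene. Of the 30-base windows of the transcripts, 5.25% in Bmp6, 0.759% in Fgf8 and 0.328% in Zp2 also occurred in transcripts of another gene, and none did in Zp1, Zp3, Gdf9, Bmp15 or Oosp1. The counts of Bmp6 are the least certain for that reason, and how strand was treated in the counting is not given in the sources used here.

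Promoter windows from 250 bases before to 50 bases after the start of the gene were matched for 4 of the 8 genes, Zp3, Bmp15, Oosp1 and Bmp6, in RefSeq's annotation of GRCm38.p6. The windows of Zp3, Bmp15 and Oosp1 are shown because a coat gene and the 2 secreted factors with the highest r across libraries (given below) can be set side by side in them. Capitals mark the letters CANNTG, the E-box to which FIGLA binds with a partner, and 3 elements of NOBOX, which are TAATTG and its variants with the letters TAATTA or with the letters TAGTTG, all searched on both strands.
Zp3 (chr5:135979855-135980154, plus strand): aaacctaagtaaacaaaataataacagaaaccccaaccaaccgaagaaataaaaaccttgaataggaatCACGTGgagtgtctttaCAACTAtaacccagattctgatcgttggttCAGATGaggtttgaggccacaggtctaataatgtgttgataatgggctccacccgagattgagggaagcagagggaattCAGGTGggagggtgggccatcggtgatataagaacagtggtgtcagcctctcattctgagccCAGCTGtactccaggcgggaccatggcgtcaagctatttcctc
Bmp15 (chrX:6320675-6320974, minus strand): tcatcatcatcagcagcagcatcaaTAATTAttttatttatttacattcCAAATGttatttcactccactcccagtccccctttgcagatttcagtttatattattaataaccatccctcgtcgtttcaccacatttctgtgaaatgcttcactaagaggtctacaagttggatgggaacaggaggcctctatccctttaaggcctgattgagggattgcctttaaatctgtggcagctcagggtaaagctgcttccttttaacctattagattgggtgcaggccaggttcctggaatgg
Oosp1 (chr19:11691002-11691301, minus strand): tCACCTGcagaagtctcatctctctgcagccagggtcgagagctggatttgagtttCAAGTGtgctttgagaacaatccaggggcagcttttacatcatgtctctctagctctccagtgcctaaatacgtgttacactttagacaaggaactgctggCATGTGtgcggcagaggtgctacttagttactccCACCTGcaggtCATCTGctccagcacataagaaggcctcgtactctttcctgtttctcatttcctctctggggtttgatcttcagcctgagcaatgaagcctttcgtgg
The Zp3 window held 4 matches of CANNTG, of which 1 was CACGTG, and 1 match of TAGTTG on the other strand. The Oosp1 window held 5 matches of CANNTG and no NOBOX letters, and the Bmp15 window held 1 match of CANNTG and 1 of TAATTA. The Bmp6 window, which is not shown, held 2 matches of CANNTG. Of 32851 windows of the same length, 72.3% held CANNTG at least once, 6.49% at least 4 times and 2.10% at least 5 times, and 17.9% held any of the NOBOX letters. No 2 matches overlapped in the windows shown. A match describes letters and is not evidence of binding.

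The libraries held 15709549 to 30430104 estimated reads, and the fewest were in replicate 2 of 0 h at 0.5 Gy. That library also held S100a8, a granulocyte gene, at 184 TPM, against 1.20 to 6.37 TPM in the other libraries. The 0 and 1 h libraries of 0.2 Gy had reads in 42767 and 42984 genes, against 36343 to 39439 elsewhere. All 7 oocyte markers, which were Ddx4, Dazl, Ybx2, Figla, Nobox, Lhx8 and Sycp3, were detected in every library, and their TPM summed to 372 to 827. The 10 granulosa markers, detected in every library too, summed to 307 to 581 TPM, the 8 stroma markers to 322 to 535, the 8 blood markers to 1001 to 6909 and the 3 endothelium markers to 4.78 to 10.4. Markers of other ovarian cells were thus present in samples labelled as oocytes, and their part in the results on the 8 genes was not tested. In such bulk RNA, fewer oocytes in growth and less RNA per oocyte cannot be told apart.

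All 8 genes had reads in all 13 libraries, and their levels spanned 3 orders of size. In TPM (relative transcript abundance, corrected for transcript length), Zp2 was the highest at 714 ± 161 TPM (mean ± SD, n = 13). Zp3 followed at 197 ± 32.5 TPM, Gdf9 at 131 ± 36.9 TPM and Zp1 at 74.8 ± 17.8 TPM. The other secreted factors were lower, with Oosp1 at 17.2 ± 10.9 TPM, Bmp15 at 6.75 ± 3.79 TPM, Bmp6 at 0.957 ± 0.303 TPM and Fgf8 at 0.531 ± 0.402 TPM. The transcripts of the coat proteins and of GDF9 were thus the 4 most abundant. Within a library each gene was above the next in this order in 13 of 13 libraries, except Bmp6, which was above Fgf8 in 10 of 13. Over all libraries, the ranges did not overlap between Zp2 and Zp3, between Zp1 and Oosp1 and between Bmp15 and Bmp6, and they did overlap between the other neighbours, Zp3 and Gdf9, Gdf9 and Zp1, Oosp1 and Bmp15, and Bmp6 and Fgf8.

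The summed TPM of Zp2 rested on a short transcript. Zp2-202, a processed transcript of 349 bases, had a median of 462 TPM but 8.76% of the gene's reads, and the coding transcript Zp2-201 of 2221 bases had 83.3% of the reads and a median of 224 TPM. With each gene's transcript with most reads in place of the sum, a scale chosen after seeing the data, Zp2-201 had a mean of 227 TPM, Zp3-201 of 166, Gdf9-201 of 87.2 and Zp1-201 of 47.5 TPM. On that scale Zp2 was above Zp3 in 12 of 13 libraries, and Bmp15 and Oosp1 changed places, with Bmp15-201 at 6.75 TPM and Oosp1-201 at 4.31 TPM. The reads of Oosp1 were divided among its 3 transcripts, with 47.2% on Oosp1-201, 28.01% on Oosp1-202 and 24.8% on Oosp1-203. Bmp15 has a single annotated transcript, of 3060 bases. Within a library, the summed TPM of Gdf9 was 10.04 to 54.4 times that of Bmp15, with a median of 19.6, so this ratio was not fixed across libraries. The ratio of Zp3 to Zp1 was narrower, at 2.11 to 3.57.

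**Figure D1:**
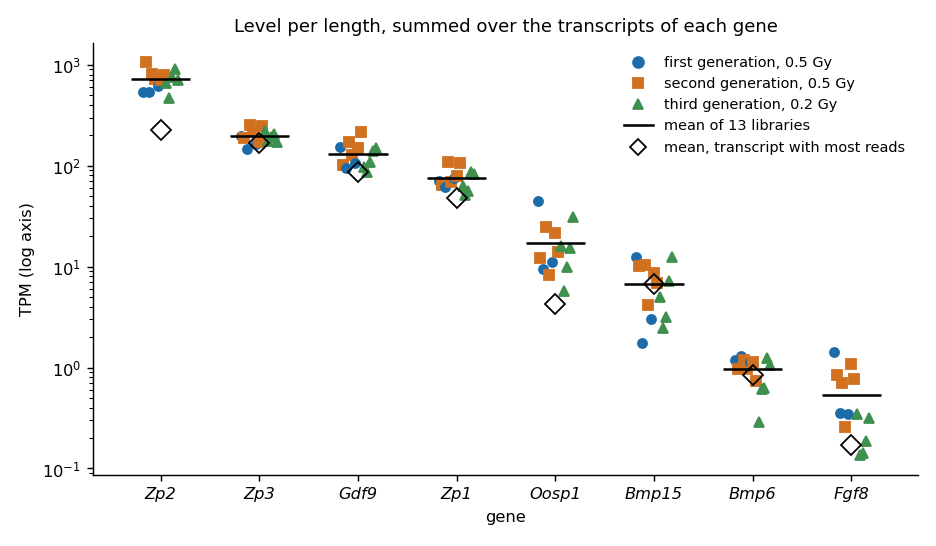
Level of each gene in TPM, on a log axis, with 1 point for each of the 13 libraries, coloured by generation and dose, a line at the mean of the summed TPM and a diamond at the mean of the transcript with most reads. Zp2, Zp3, Gdf9 and Zp1 lie above Oosp1, Bmp15, Bmp6 and Fgf8, and the Zp2 diamond lies far below its summed level.

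Values of 1 gene were compared between libraries in CPM (read counts relative to the scaled library total, not corrected for length). The zona genes varied less across libraries than the secreted factors. Zp2, whose protein forms filaments with ZP3 and carries a sperm-binding region, was at 1860.0 and 2140.1 CPM in the 0 h pair of libraries, 1535 and 2084 in the 1 h pair, 1676 in the 2.5 h library, 1737 and 1908 in the 4 h pair and 1926 in the 6 h library at 0.5 Gy. At 0.2 Gy it was at 1647, 1032, 1681, 2093 and 1826 CPM in the order of time. The 1 h library of 0.2 Gy was the lowest of all, and the other 12 libraries lay between 1535 and 2140.1 CPM. Zp3, the other filament subunit, was at 663 and 475 CPM in the 0 h pair of libraries, 438 and 749 in the 1 h pair, 589 in the 2.5 h library, 482 and 550.1 in the 4 h pair and 689.8 in the 6 h library at 0.5 Gy and at 583, 473, 525, 566 and 552 CPM at the 5 times of 0.2 Gy. Both its lowest and its highest value came from the 1 h duplicates of 0.5 Gy. Zp1, whose protein cross-links the filaments, was at 258 and 219 CPM in the 0 h pair of libraries, 219.7 and 371 in the 1 h pair, 238 in the 2.5 h library, 254 and 340.1 in the 4 h pair and 376 in the 6 h library at 0.5 Gy. At 0.2 Gy Zp1 was at 216, 178, 178, 289.7 and 287 CPM, with the 4 and 6 h libraries above the 3 earlier ones. The SD of log2 CPM over the 13 libraries was 0.36 for Zp1, 0.27 for Zp2 and 0.23 for Zp3, beside a median of 0.37 and quartiles of 0.27 and 0.54 over 15061 protein-coding genes with a mean of at least 1 CPM. The coat genes were thus no more variable than a typical gene.

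Gdf9, a ligand that granulosa cells need for follicles to grow past the primary stage, was at 652 and 316 CPM in the 0 h pair of libraries, 350.4 and 609 in the 1 h pair, 370.1 in the 2.5 h library, 384 and 506 in the 4 h pair and 614 in the 6 h library at 0.5 Gy. At 0.2 Gy it was at 335, 272, 354, 405 and 557 CPM at the 5 times. The 0 h library of replicate 1 was the highest and the 1 h library of 0.2 Gy the lowest, and the SD of log2 CPM was 0.42. Bmp15, the X-linked partner ligand of GDF9, varied much more, at 157 and 96.3 CPM in the 0 h pair of libraries, 19.8 and 105 in the 1 h pair, 38.2 in the 2.5 h library, 33.3 and 91.4 in the 4 h pair and 63.04 in the 6 h library at 0.5 Gy. At 0.2 Gy Bmp15 was at 51.8, 25.1, 30.4, 68.2 and 141 CPM, so its highest and lowest libraries lay 7.96-fold apart. Replicate 1 of 0 h and the 6 h library of 0.2 Gy were the 2 highest, and replicate 1 of 1 h was the lowest. Oosp1, which encodes a small secreted protein made by oocytes, was at 74.6 and 15.3 CPM in the 0 h pair of libraries, 13.2 and 32.4 in the 1 h pair, 9.95 in the 2.5 h library, 15.5 and 32.2 in the 4 h pair and 17.7 in the 6 h library at 0.5 Gy. At 0.2 Gy Oosp1 was at 19, 7.24, 12.2, 19.9 and 42.9 CPM. Its highest library, replicate 1 of 0 h, lay 10.3-fold above its lowest, the 1 h library of 0.2 Gy, and the same 2 libraries as for Bmp15 were the highest. The SD of log2 CPM was 0.97 for Bmp15 and 0.91 for Oosp1.

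Fgf8, which together with BMP15 drives glycolysis in the cumulus cells of later follicles, was barely detected, at 2.46 and 0.95 CPM in the 0 h pair of libraries, 0.687 and 1.45 in the 1 h pair, 0.524 in the 2.5 h library, 0.701 and 1.70 in the 4 h pair and 1.43 in the 6 h library at 0.5 Gy and at 0.59, 0.275, 0.296, 0.26 and 0.562 CPM at the 5 times of 0.2 Gy. These values rest on 7 to 61 reads per library. The 61 reads of replicate 1 at 0 h have an exact Poisson interval of 46.7 to 78.4 reads and the 7 reads of the 4 h library of 0.2 Gy one of 2.81 to 14.4 reads, which cover counting error only. All 5 libraries of 0.2 Gy were at or under 0.59 CPM, and 1 library of 0.5 Gy, that of 2.5 h, was as low. Bmp6, a bone morphogenetic protein, was at 12 and 3.73 CPM in the 0 h pair of libraries, 10.4 and 11.5 in the 1 h pair, 8.72 in the 2.5 h library, 10.3 and 8.33 in the 4 h pair and 6.15 in the 6 h library at 0.5 Gy and at 2.09, 4.77, 5.26, 10.98 and 9.51 CPM at the 5 times of 0.2 Gy. The 3 lowest libraries were the 0 and 1 h libraries of 0.2 Gy and replicate 2 of 0 h at 0.5 Gy. Its SD of log2 CPM was 0.75.

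**Figure D2:**
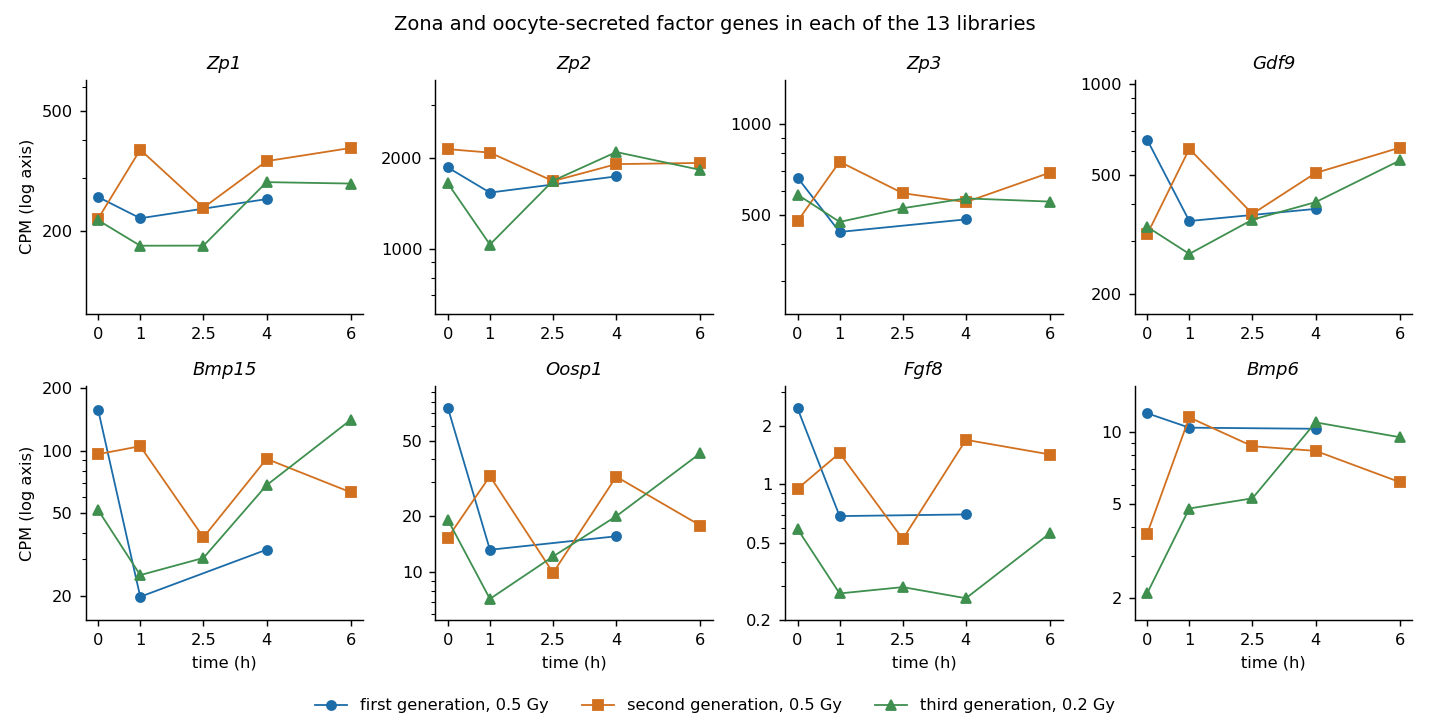
CPM of each gene, on log axes, against the time in hours, with 1 point for each library and lines that join the libraries of a generation. Bmp15 and Oosp1 spread over a wide range at 0 and 1 h, the zona genes spread over narrower ranges, and most Fgf8 values of the third generation (0.2 Gy) lie below the others.

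Which of the 8 genes changed with time after 0.5 Gy was asked by comparing each time point with 0 h in 1 edgeR model of the 8 libraries. A gene counted as called when its Benjamini-Hochberg adjusted p, over all genes tested, was below 0.05 and its log2 fold change above 1 in size. None of the 8 genes was called at 1, 2.5, 4 or 6 h by edgeR's quasi-likelihood test, none had an unadjusted p under 0.05, and DESeq2 called none of them either. Of all 28468 genes tested edgeR called 0% at each of these times, with 1133, 1590, 1658 and 1691 genes at an unadjusted p under 0.05, and DESeq2 called 20, 83, 124 and 139. The furthest from 0 h was Oosp1 at 2.5 h, with a log2 fold change of -2.14 (SE 0.96, 95% interval -4.32 to 0.03, edgeR adjusted p = 0.875). Bmp15 at 2.5 h followed at -1.70 (SE 0.94, 95% interval -3.82 to 0.42, edgeR adjusted p = 0.875). Both estimates rest on the single library of 2.5 h and on 0 h duplicates that lay 4.89-fold apart for Oosp1 and 1.64-fold apart for Bmp15. Without replicate 1 of 0 h, the log2 fold change at 2.5 h was -0.60 for Oosp1 and -1.31 for Bmp15. The 2.5 and 6 h libraries are of the second generation alone, and 0 h holds both. With generation as a term, edgeR called 0, 1, 6 and 7 of all genes at 1, 2.5, 4 and 6 h and none of the 8. The log2 fold change at 2.5 h was then -2.47 for Bmp15, -2.27 for Oosp1 and -1.95 for Fgf8, and at 6 h -1.73 for Bmp15 and 0.52 for Zp1. The zona genes had narrower intervals, and in the model of time alone at 6 h the log2 fold change was 0.70 (SE 0.37, 95% interval -0.14 to 1.55, edgeR adjusted p = 0.849) for Zp1, -0.01 (SE 0.30, edgeR adjusted p = 1) for Zp2 and 0.33 (SE 0.38, edgeR adjusted p = 0.934) for Zp3.

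Pooling the late libraries (2.5, 4 and 6 h) against the early ones (0 and 1 h) at 0.5 Gy, 4 libraries against 4, narrowed the intervals. Time points pooled on a side are not replicates of a condition, so the spread also holds differences between those times. Late and early libraries overlapped for all 8 genes. By edgeR 0 of the 8 genes was called, also with any 1 library left out, beside 0.128% of 22588 genes tested, none had an unadjusted p under 0.05, and DESeq2 called none. The log2 fold change was 0.17 (SE 0.21, 95% interval -0.28 to 0.63, edgeR adjusted p = 0.842) for Zp1, -0.08 (SE 0.15, 95% interval -0.40 to 0.25, edgeR adjusted p = 0.915) for Zp2 and -0.01 (SE 0.19, 95% interval -0.44 to 0.41, edgeR adjusted p = 0.99) for Zp3. For the coat genes, log2 fold changes above 0.63 or below -0.44 lay outside all 3 intervals. Gdf9 had -0.04 (SE 0.25, 95% interval -0.60 to 0.51, edgeR adjusted p = 0.972), an estimate as near 0 as those of the zona genes. Bmp15 and Oosp1, which varied more, had wide intervals, with Bmp15 at -0.75 (SE 0.49, 95% interval -1.82 to 0.32, edgeR adjusted p = 0.684) and Oosp1 at -0.85 (SE 0.51, 95% interval -1.97 to 0.27, edgeR adjusted p = 0.658). Fgf8 had -0.36 (SE 0.54, edgeR adjusted p = 0.882) and Bmp6 -0.17 (SE 0.35, edgeR adjusted p = 0.92). The median over the 8 genes was -0.13, beside -0.02 over all genes tested, and 1 of the 8 estimates was above 0. With generation as a term, Bmp15 had -0.90 and Oosp1 -0.67, none of the 8 genes was called, and 18 of all genes were called in place of 29. In the same comparison, estimates were above 0 for 2 of 10 granulosa markers (median -0.15), 1 of 8 stroma markers (median -0.21), 4 of 8 blood markers (median 0.01), 0 of 3 endothelium markers (median -0.12) and 1 of 7 oocyte markers (median -0.15), and none was called.

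For the lower dose, 2 late libraries (4 and 6 h) were set against 2 early ones (0 and 1 h), which again are not replicates of a condition. The spread came from 11 libraries, 7 of which were of 0.5 Gy, since each time had a single library at 0.2 Gy. The estimates were mostly above 0, for 7 of the 8 genes, with a median of 0.60 beside -0.03 over all genes, but 0 of the 8 genes was called by edgeR, beside 0.0462% of 28162 genes, and DESeq2 called none. Zp2 and Bmp6 had an unadjusted p under 0.05. Bmp6 was at 2.09 and 4.77 CPM early and at 10.98 and 9.51 CPM late, a log2 fold change of 1.58 (SE 0.55, 95% interval 0.39 to 2.76, edgeR adjusted p = 0.638). Zp2 had 0.55 (SE 0.23, 95% interval 0.06 to 1.04, edgeR adjusted p = 0.658). Bmp15, at 51.8 and 25.1 CPM early and 68.2 and 141 CPM late, had 1.44 (SE 0.72, 95% interval -0.12 to 3.01, edgeR adjusted p = 0.704). Oosp1 had 1.25 (SE 0.75, 95% interval -0.36 to 2.87, edgeR adjusted p = 0.745). With 1 library left out, these values ran from 1.15 to 2.30 for Bmp6, 0.26 to 0.97 for Zp2, 0.84 to 2.10 for Bmp15 and 0.61 to 2.16 for Oosp1, with each end set by a library of 0.2 Gy. The early libraries lay below the late ones for Zp1, Zp2, Gdf9, Bmp15, Oosp1 and Bmp6, and overlapped them for Zp3 and Fgf8. For Oosp1 the gap was narrow, from 19.0 CPM at 0 h to 19.9 CPM at 4 h. The share of all genes that separate in this way was not counted, so no result on the 8 genes is read from it. The 2 early libraries were those with reads in the most genes, as given above. Over the lists, estimates were above 0 for 9 of 10 granulosa markers (median 0.34), 7 of 8 stroma markers (median 0.54), 8 of 8 blood markers (median 0.68) and 1 of 7 oocyte markers (median -0.13), of which edgeR called 0, and 13 of 14 genes of growing oocytes had an estimate above 0 (median 0.29). Their part in the values of the 8 genes was not tested.

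The difference between the doses in the late against early change was tested in the same fit. By edgeR 0 of the 8 genes was called, beside 0.0320% of 28162 genes, and DESeq2 called none. Bmp15 and Bmp6 had an unadjusted p under 0.05, with a difference on the log2 scale of 2.04 (SE 0.91, 95% interval 0.08 to 4.00, edgeR adjusted p = 0.602) for Bmp15 and 1.77 (SE 0.68, 95% interval 0.30 to 3.24, edgeR adjusted p = 0.564) for Bmp6, higher at 0.2 Gy. Oosp1 had 1.89 (SE 0.94, 95% interval -0.14 to 3.93, edgeR adjusted p = 0.624). For Zp3 the difference was 0.10 (SE 0.33, 95% interval -0.62 to 0.82, edgeR adjusted p = 0.956). All 8 estimates were above 0, with a median of 0.59 beside -0.05 over all genes. With 1 library left out they ran from 1.43 to 2.69 for Bmp15, 1.34 to 2.49 for Bmp6 and 1.15 to 2.79 for Oosp1. In the same comparison, estimates were above 0 for 8 of 8 stroma markers (median 0.83, 1 called by DESeq2), 9 of 10 granulosa markers (median 0.37), 7 of 8 blood markers (median 0.54), 3 of 3 endothelium markers and 5 of 7 oocyte markers (median 0.15), of which edgeR called 0, and their part in the values was not tested. Since 0.2 Gy is also the third generation, a difference between doses would also be a difference between generations.

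Generations were compared in a model of time and generation over all 13 libraries. Between the second and the first generation, both of 0.5 Gy, edgeR called 0 of the 8 genes, beside 0.154% of 28493 genes. None had an unadjusted p under 0.05. DESeq2 also called none, but gave 1 of the 8, a secreted factor, no adjusted p. The log2 fold changes ran from -0.75 (SE 0.46, 95% interval -1.75 to 0.25, edgeR adjusted p = 0.576) for Bmp6 to 0.68 (SE 0.59, 95% interval -0.59 to 1.96, edgeR adjusted p = 0.72) for Bmp15. Between the third generation and the mean of the other 2, edgeR again called 0 of 8 genes, beside 0.137% of 28493 genes, and Fgf8 alone had an unadjusted p under 0.05. All 8 estimates were below 0, with a median of -0.32 beside 0.05 over all genes. Leaving out 1 library turned the sign for Bmp15, Oosp1, Zp2 and Zp3. Fgf8 had the largest, -1.57 (SE 0.46, 95% interval -2.57 to -0.56, edgeR adjusted p = 0.202), with an unadjusted edgeR p of 0.00528, and DESeq2 called it, with a log2 fold change of -1.60 and an adjusted p of 0.0342. Its 5 values in the third generation overlapped the range of the others only through the 2.5 h library of the second generation. The remaining estimates were -0.70 (SE 0.37, edgeR adjusted p = 0.419) for Bmp6, -0.46 (SE 0.51, edgeR adjusted p = 0.699) for Oosp1 and -0.36 (SE 0.21, edgeR adjusted p = 0.463) for Gdf9. Among the other genes of the lists, the globin gene Hba-a1 was called lower in the third generation, at 151 to 1085 TPM against 702 to 2464 TPM in the other libraries and a log2 fold change of -1.78 (SE 0.25, edgeR adjusted p = 0.0346). That call was lost without replicate 1 of 0 h, replicate 2 of 1 h or replicate 1 of 4 h at 0.5 Gy, or without the 0 or 1 h library of 0.2 Gy, with edgeR adjusted p of 0.0548 to 0.145. The part of blood RNA in the Fgf8 value was not tested.

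**Figure D3:**
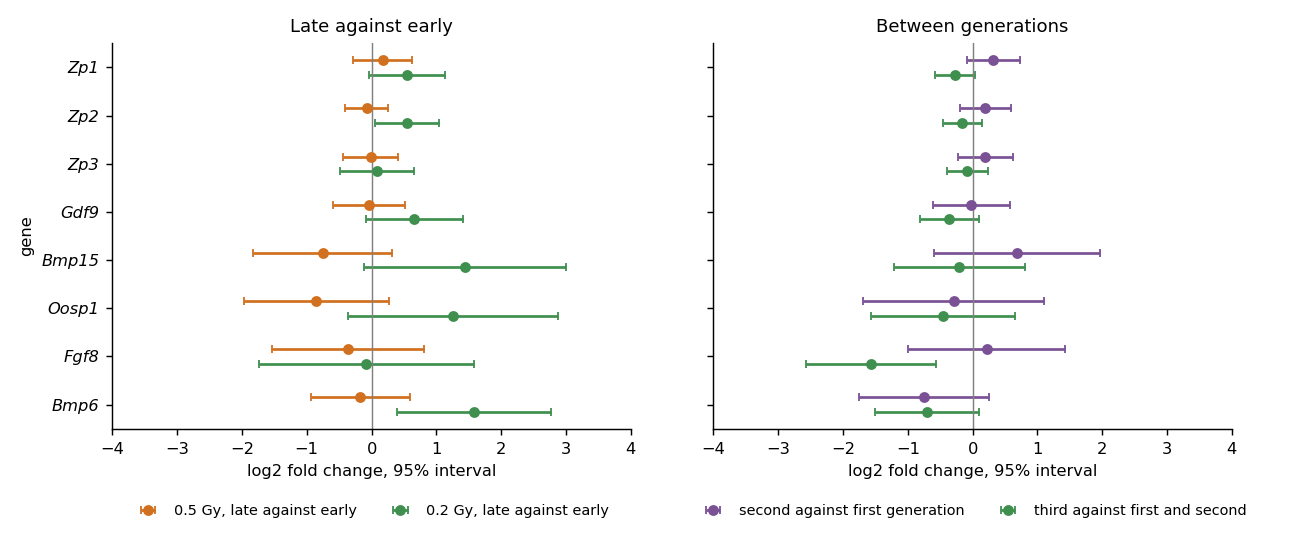
Log2 fold changes from edgeR with 95% intervals for the 8 genes, late against early at each dose (left) and between generations (right). The zona genes have the narrowest intervals, those of Bmp15, Oosp1 and Fgf8 are wide, and none of these comparisons passed the adjusted threshold.

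The duplicates of 0.5 Gy differed widely for some of the genes. Bmp15 differed 5.32-fold between the 1 h duplicates and 2.74-fold between the 4 h duplicates, with replicate 2 higher at both times. Oosp1 differed 4.89-fold at 0 h, with replicate 1 higher, and 2.46-fold at 1 h and 2.07-fold at 4 h, with replicate 2 higher. The sign of the difference was mostly shared by the 8 genes. Replicate 2 was the higher one for 1 of 8 genes at 0 h, which was Zp2, for 8 of 8 at 1 h and for 7 of 8 at 4 h, the exception being Bmp6. Over 15061 protein-coding genes, replicate 2 was higher for 49.7%, 51.3% and 53.6% at these times. The median size of the difference over the 8 genes was 0.88, 0.79 and 0.41 on the log2 scale at 0, 1 and 4 h, beside 0.46, 0.35 and 0.37 over all of these genes. Of these genes, 31.6%, 1.38% and 5.09% differed by more than Bmp15 did at 0, 1 and 4 h, and 2.66%, 6.62% and 11.1% by more than Oosp1.

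Whether the 8 genes varied together across libraries was asked with Pearson's r and Spearman's rho of log2 CPM over the 13 libraries, for 28 pairs, with a two-sided permutation test of 100000 resamples and Benjamini-Hochberg adjustment over the 28 pairs. All 28 values of r were above 0, from 0.20 to 0.86 with a median of 0.58, and 10 pairs had an adjusted p under 0.05 by r and 5 by rho. The median r of a member with all other genes was 0.01 to 0.09. The share of pairs of other genes that would pass was not counted. Values of r of this size also occurred with other genes: Zp2, at r = 0.64 with Zp1, ranked 376 of 15060 protein-coding genes by r with Zp1. After centring the values within each generation the median was 0.59, and 8 pairs passed. At 0.5 Gy alone 26 of 28 values of r were above 0 (n = 8), and at 0.2 Gy alone 26 of 28, where 5 libraries are too few to read a single r.

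The closest pair was Bmp15 and Oosp1, with r = 0.86 and rho = 0.85 (permutation p = 0.00016 and 0.00053, adjusted 0.00448 and 0.00742). Within generations r was 0.94, at 0.5 Gy alone 0.79, and without the 2 libraries farthest from the median of Bmp15 0.86. All of these values lay within 0.79 to 0.94. Gdf9 and Oosp1 had r = 0.83 and rho = 0.76 (permutation p = 0.00048 and 0.00352, adjusted 0.00653 and 0.0329), with r = 0.85 within generations and 0.89 without the 2 farthest libraries. Zp1 and Gdf9 had r = 0.82 and rho = 0.86 (permutation p = 0.0007 and 0.00025, adjusted 0.00653 and 0.007), with 0.83 within generations and 0.73 without the 2 farthest. Zp3 and Gdf9 had r = 0.78 and rho = 0.73 (permutation p = 0.00198 and 0.006, adjusted 0.0139 and 0.042), with 0.81 within generations and 0.76 without the 2 farthest. Gdf9 therefore stood in 3 of the 5 pairs that passed by both measures, with Zp1, Zp3 and Oosp1. The fifth was Zp2 and Bmp15, with r = 0.67 and rho = 0.71 (permutation p = 0.00515 and 0.00831, adjusted 0.0288 and 0.0465), 0.64 within generations and 0.59 without the 2 farthest.

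Among the zona genes themselves the values of r were lower than those of Zp1 and Zp3 with Gdf9, and the difference was not tested. Zp1 and Zp3 had r = 0.68 and rho = 0.64 (permutation p = 0.0111 and 0.0226, adjusted 0.031 and 0.0633). Without the 2 libraries farthest from the median of Zp1, r was 0.40. With any 1 library left out it was 0.58 to 0.74, and within generations it was 0.63. Leaving out the extremes of a gene also narrows its range, so it cannot show that a relation rests on them. Zp1 and Zp2 had r = 0.64 and rho = 0.65 (permutation p = 0.0102 and 0.0183, adjusted 0.031 and 0.0578). Zp2 and Zp3 had r = 0.47 and rho = 0.40 (permutation p = 0.109 and 0.182, adjusted 0.133 and 0.221), which missed the threshold. The relation of Oosp1 and Fgf8, r = 0.68, also weakened to 0.40 without the 2 farthest libraries, although it was 0.86 within generations. The 7 pairs with Bmp6 had r from 0.20 to 0.55 with a median of 0.26, beside 0.61 over the pairs without it, and 0 of 7 passed. Bmp6 with Gdf9, at r = 0.55 and rho = 0.66, was above Zp2 with Zp3. The difference between these sets of pairs was not tested. The number of pairs that passed moved from 10 to 16 without replicate 2 of 0 h at 0.5 Gy, to 4 without replicate 2 of 1 h at 0.5 Gy, to 4 without the 1 h library of 0.2 Gy, and to 2 on the scale log2(TPM + 1).

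**Figure D4:**
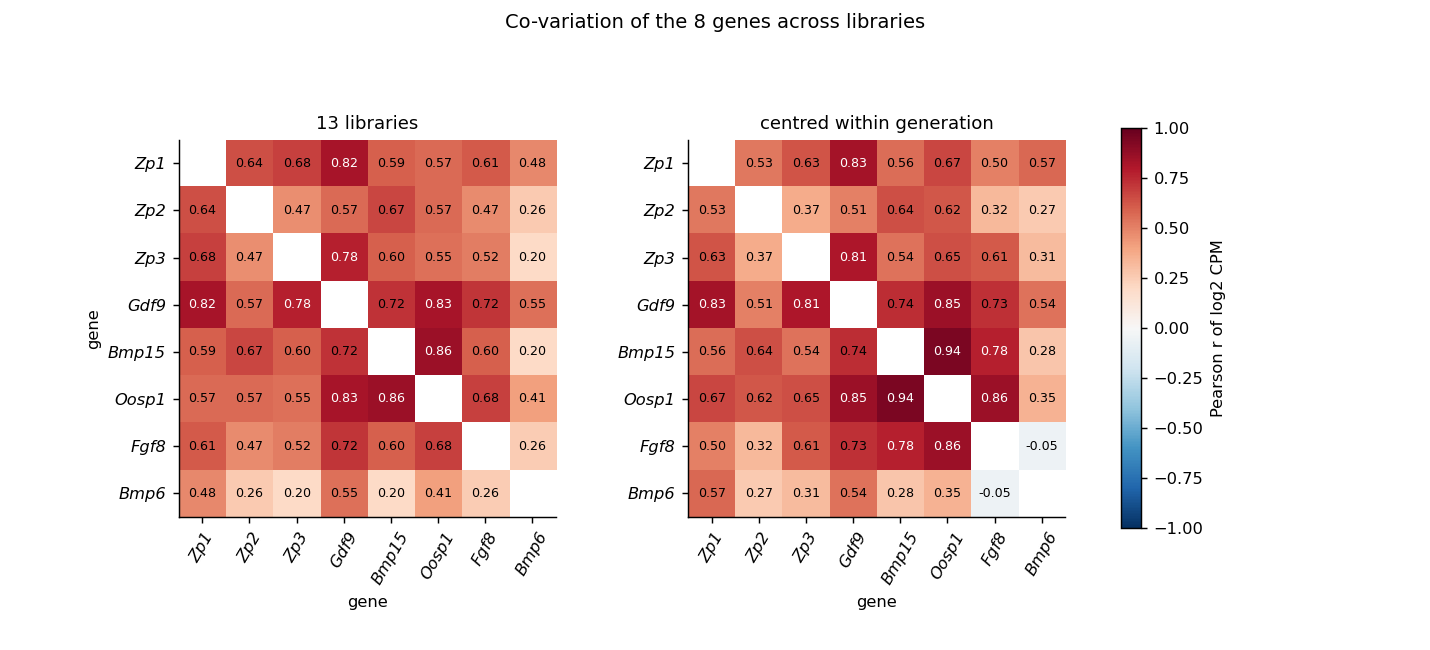
Pearson r of log2 CPM for the 28 pairs of genes over the 13 libraries (left) and after centring within each generation (right), on a colour scale from -1 to 1. Bmp15 and Oosp1, and Gdf9 with Zp1, Zp3 and Oosp1, have the highest values, and the row of Bmp6 is the palest.

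Markers of other cells moved with some of the genes. The summed TPM of the granulosa markers had r = 0.61 with Bmp15 and 0.58 with Oosp1 over the 13 libraries. The summed TPM of the oocyte markers had -0.60 and -0.62. That sum rested most on Sycp3, at 149 to 427 TPM, and on Figla, which were the highest of the 7 markers in every library. Sycp3 is also among the genes of dormancy and meiotic prophase given below, so the sum is not read as a measure of total oocyte content. Of the single granulosa markers, 9 of 10 had r above 0 with Oosp1, with a median of 0.52, beside 0.02 over all genes. With Bmp15, 8 of 10 had r above 0, with a median of 0.42, and Kitl had -0.13 and Wt1 -0.04. Of the 7 single oocyte markers, 2 had r above 0 with Bmp15 and 0 with Oosp1, with medians of -0.27 and -0.30. Among them, Ddx4 had 0.09 with Bmp15 and -0.20 with Oosp1. The granulosa sum had r of 0.47 with Zp1, 0.47 with Zp3 and 0.50 with Gdf9, and -0.03 with Bmp6. The blood sum had r from 0.05 with Zp3 to 0.55 with Zp1, the stroma sum from -0.33 with Fgf8 to 0.30 with Zp2, and the endothelium sum from -0.11 with Bmp6 to 0.46 with Zp2. Depth had r from -0.47 with Zp2 to 0.23 with Zp3, with -0.31 for Bmp15 and -0.03 for Oosp1. The number of genes with reads had a negative r with every member, from -0.68 with Zp2 to -0.05 with Zp3. This r was -0.58 with Bmp6, -0.53 with Fgf8, -0.41 with Gdf9, -0.39 with Zp1, -0.38 with Oosp1 and -0.37 with Bmp15. These values of r are descriptions over 13 libraries, with no test, and their part in the co-variation was not tested.

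**Figure D5:**
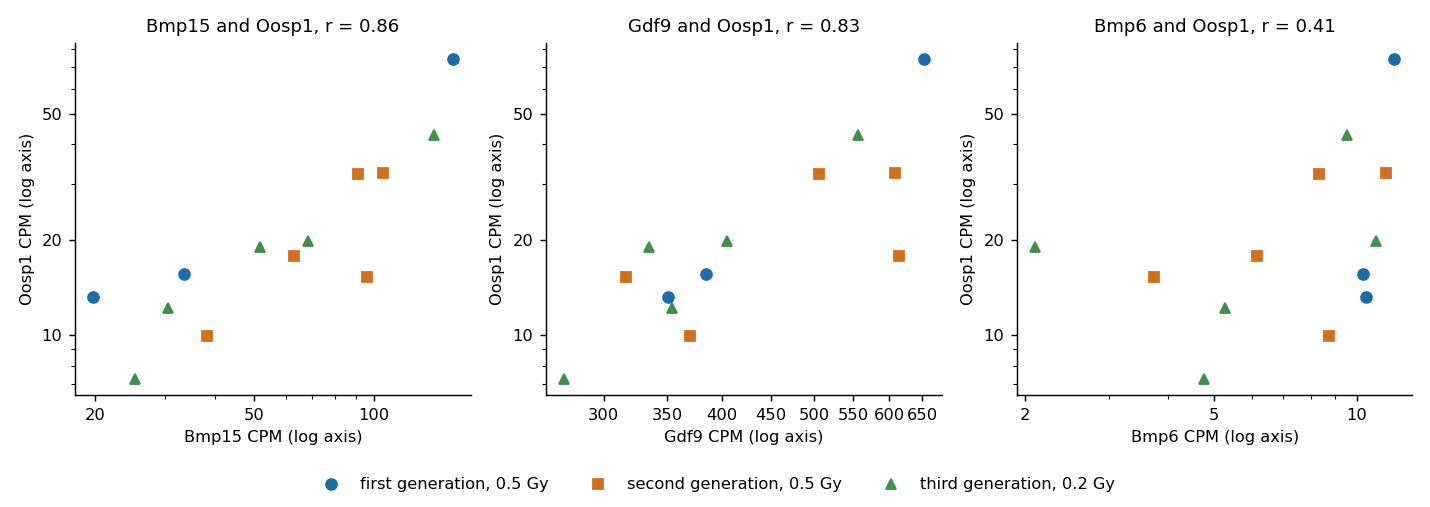
CPM of Oosp1 against CPM of Bmp15, Gdf9 and Bmp6 in the 13 libraries, on log axes, with points coloured by generation and dose. Oosp1 follows Bmp15 (r = 0.86) and Gdf9 (r = 0.83) more closely than Bmp6 (r = 0.41).

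For each gene with a mean of at least 1 CPM, the 15060 other protein-coding genes of that level were ranked by r of log2 CPM over the 13 libraries, and the first 3 that were not members are given as a description. The patterns most like Gdf9 were those of Oas1e (r = 0.94), Astl (r = 0.94), which encodes ovastacin, the protease that cuts ZP2 after fertilisation, and Bcl2l10 (r = 0.93), a BCL2-family gene of oocytes. Most like Bmp15 were Pla2g4c (r = 0.95), a phospholipase gene, Nlrp9b (r = 0.91) and the spindle gene Aspm (r = 0.91). Most like Oosp1 were the F-box genes Fbxw14 (r = 0.96) and Fbxw21 (r = 0.95), which belong to a family of similar copies whose reads may be divided among them, and Ccdc69 (r = 0.95). Other genes held the first places for the zona genes. Zp1 was followed most closely by Rhpn2 (r = 0.92), the oocyte poly(A)-binding protein gene Pabpc1l (r = 0.91) and Nfkb2 (r = 0.87), Zp2 by Akap8 (r = 0.90), Aaed1 (r = 0.86) and Trp53bp1 (r = 0.85), and Zp3 by the arginine methyltransferase gene Carm1 (r = 0.93), Dguok (r = 0.82) and Lrrc8e (r = 0.81). Bmp6 was followed by Fgf11 (r = 0.90), Nudt13 (r = 0.88) and Smim20 (r = 0.88).

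Among the members, Gdf9 ranked 9 of 15060 for Zp3 and 18 for Zp1, while the best-placed other zona gene ranked 70 for Zp3 and 241 for Zp1. For Zp2, Bmp15 ranked 226 and Zp1 312. Oosp1 ranked 24 for Bmp15 and 47 for Gdf9, and Bmp15 ranked 40 for Oosp1. No member ranked above 1029 for Bmp6. Fgf8 had a mean under 1 CPM and was not ranked.

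The wider pathway was followed in lists of genes, late against early at 0.5 Gy. In each list edgeR called 0 genes, and DESeq2 called none of them either. DESeq2 gave no adjusted p for 1 of the other secreted and processing genes. Beside the counts, 0.128% of all genes tested was called, as above. Of the 14 genes of growing oocytes, 9 had an estimate above 0, with a median of 0.03, beside -0.02 over all genes, and none had an unadjusted p under 0.05. The largest were Tle6, a gene of the subcortical maternal complex, at 133 to 386 CPM with 0.39 (SE 0.21, edgeR adjusted p = 0.617), Nlrp5, of the same complex, at 421 to 2349 CPM with 0.35 (SE 0.33, edgeR adjusted p = 0.787), and the maternal gene Zar1 with -0.32 (SE 0.27, edgeR adjusted p = 0.757). Across libraries, 11 of the 14 had r above 0 with Gdf9, with a median of 0.55, beside 0.07 over all genes, and 11 with Oosp1, with a median of 0.39. Of the 5 genes of dormancy and meiotic prophase, 1 had r above 0 with Gdf9, with a median of -0.29, and 1 with Oosp1, with -0.29. Late against early, 2 of these 5 had an estimate above 0, and the largest were those of the cohesin gene Stag3, with 0.56 (SE 0.32, edgeR adjusted p = 0.639), the cell cycle inhibitor gene Cdkn1b, with -0.29 (SE 0.16, edgeR adjusted p = 0.639), and Foxo3, which keeps primordial follicles dormant, with 0.18 (SE 0.18, edgeR adjusted p = 0.801).

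Of the 8 regulators of oocyte genes, 5 had an estimate above 0 late against early at 0.5 Gy, with a median of 0.09, and 1 had an unadjusted p under 0.05. That was Sohlh2, a transcription factor gene of early oocytes, at 23.96 to 67.04 CPM with 0.51 (SE 0.21, edgeR adjusted p = 0.504). Lhx8, of primordial oocytes, had -0.46 (SE 0.22, edgeR adjusted p = 0.565) and the E-box factor gene Tcf12 had -0.24 (SE 0.14, edgeR adjusted p = 0.652). Across libraries the median r of the regulators was -0.13 with Zp1, 0.02 with Zp2 and -0.09 with Zp3, beside 0.09, 0.08 and 0.03 over all genes. Of 7 other secreted and processing genes, which include Astl, 3 had an estimate above 0. Oosp3, a relative of Oosp1, was at 0.778 to 33.7 CPM with -1.84 (SE 0.68, edgeR adjusted p = 0.468). That value rested on replicate 1 of 0 h, at 33.7 CPM beside 1.65 to 5.96 CPM in the other libraries of 0.5 Gy, and was -0.58 without it. The convertase gene Pcsk5 had -0.35 (SE 0.17, edgeR adjusted p = 0.572) and Oosp2 -0.30 (SE 0.28, edgeR adjusted p = 0.781).

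On the receiving side, 3 of 12 receptor genes had an estimate above 0, with a median of -0.17, and 1 had an unadjusted p under 0.05, Bmpr2, the type II receptor of GDF9, BMP15 and BMP6, at 144 to 284 CPM with -0.47 (SE 0.20, edgeR adjusted p = 0.517). Fgfr4 had 0.64 (SE 0.46, edgeR adjusted p = 0.711) and the type I receptor gene Acvr1 -0.51 (SE 0.31, edgeR adjusted p = 0.661). Of 8 SMAD genes, 4 had an estimate above 0, with a median of -0.08, and Smad9, at 0.524 to 2.30 CPM, had -1.23 (SE 0.45, edgeR adjusted p = 0.46), the inhibitory Smad7 -0.41 (SE 0.29, edgeR adjusted p = 0.707) and the shared Smad4 -0.34 (SE 0.17, edgeR adjusted p = 0.603). Of 10 extracellular inhibitors, 3 had an estimate above 0, and Sostdc1 had -1.58 (SE 0.69, edgeR adjusted p = 0.526), Grem1 -0.84 (SE 0.60, edgeR adjusted p = 0.707) and the follistatin-like Fstl3 0.80 (SE 0.33, edgeR adjusted p = 0.504). Of 12 target genes tested of 13, 4 had an estimate above 0, with a median of -0.13. Ptgs2, at 0.15 to 2.18 CPM, had -1.58 (SE 0.58, edgeR adjusted p = 0.466), the hyaluronan synthase gene Has2, at 0.302 to 4.00 CPM, had -1.06 (SE 0.70, edgeR adjusted p = 0.688) and the FGF target Etv4 had 1.00 (SE 0.64, edgeR adjusted p = 0.679).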

How the data were processed

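RNA of 13 libraries of oocytes from irradiated mouse ovaries was analysed. The authors quantified reads per transcript with salmon (GRCm38, per the labels and the submitters' notes, which also name DESeq2 1.24.0) and deposited estimated counts and TPM. Their merged normalised table and their tables of log2 fold changes, Wald statistics and p-values were not used. Estimated counts were summed per gene with GENCODE vM21 and rounded, and 402 transcripts without a gene (0.318 to 0.495% of reads) were left out. Depth was 15709549 to 30430104 reads a library.

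Genes were tested with edgeR 4.0.16 (TMM, filterByExpr, quasi-likelihood, Benjamini-Hochberg; R 4.3.3, limma 3.58.1), with DESeq2 1.42.0 as an alternative. Log2 CPM used a prior count of 2. Co-variation was tested with 100000 permutations, two-sided, in Python 3.11.15 (numpy 2.4.6, pandas 2.3.3, scipy 1.17.1). Other alternatives were normalisation, filter, counts rebuilt from TPM, model terms and each library left out. The tests were tried on simulated data. Named genes were the 8 members, up to 3 of each list with the largest change late against early at 0.5 Gy or called, and 3 genes most like each member. The members and lists were chosen with earlier results of these data known. The 6 replicated libraries and the single ones share the spread of the fit. Intervals on reads cover counting error only.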

Additional observations from a re-analysis of the deposited data

Results flagged for a closer look

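Bmp6 was at 3.73 CPM in replicate 2 of 0 h at 0.5 Gy, far below the other 3 early libraries of that dose, which lay between 10.4 and 12 CPM. Of 32 groups of libraries examined in this way for the 8 genes, 1 held such a library, and chance alone marks about 1 in 20. The same library had the fewest reads, 15709549, and the S100a8 level given above, and their part in the value was not tested. In TPM the gap was smaller, with Bmp6 at 0.963 TPM in that library and at 1.19, 1.31 and 1.19 TPM in the other early ones. Its CPM value there rests on 55 reads.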

How the results depend on the processing

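None of the 8 genes was called in any comparison under any alternative, except Fgf8 between the third and the other generations. There DESeq2 called 1 of 8 genes, with a log2 fold change of -1.60. Between the second and the first generation DESeq2 gave 1 of the 8 genes no adjusted p. Of 555 log2 fold changes recomputed under other normalisation, filter, counts, test or terms, 19 turned their sign, in 12 of 111 results, and of 1005 with 1 library left out, 76 did, in 41 of 111. All of these were of genes that were not called. With DESeq2 size factors in edgeR, Gdf9 was at -0.014 at 1 h and Zp1 at -0.00064 at 2.5 h. By DESeq2, Gdf9 was at -0.0048 at 1 h. With counts rebuilt from TPM, Zp1 was at -0.16 and Bmp6 at -0.36 at 2.5 h, Gdf9 at 0.071 late against early at 0.5 Gy, Fgf8 at 0.15 at 0.2 Gy, and Gdf9 at 0.019 between the second and the first generation. With no filter, Zp2 was at 0.032 at 6 h, and Zp3, Gdf9 and Pecam1 were at 0.033, 0.0019 and 0.028 late against early at 0.5 Gy. With time left out, Gdf9 was at 0.036 and Fgf8 at -0.11 between the second and the first generation, and Hba-a1, at -1.74, lost its call in the third. The cause was not tested. With no filter, the median of all genes moved to -0.16 at 0.2 Gy, -0.18 in the difference between doses and 0.20 in the third generation, and with DESeq2 to -0.13 and 0.17 at 0.2 Gy and in the third generation. In the order of the report, edgeR called 0, 0, 0, 0, 29, 13, 9, 44 and 39 of all genes in the 9 comparisons, against 30, 56, 80, 78, 58, 32, 22, 162 and 184 with no filter and 20, 83, 124, 139, 200, 147, 131, 350 and 334 by DESeq2. With time left out, the generations gave 133 and 81 calls, and with counts rebuilt from TPM the second against the first gave 72. On the scale log2(TPM + 1), 2 pairs of the 28 passed in place of 10.

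With 1 library left out, the pairs that passed numbered 4 to 16. At 1 h the log2 fold changes ran from -0.12 to 0.67 for Zp1, -0.38 to 0.093 for Zp2, -0.38 to 0.43 for Zp3, -0.47 to 0.61 for Gdf9, -1.77 to 0.59 for Oosp1, -1.32 to 0.19 for Fgf8 and -0.095 to 1.57 for Bmp6. At 2.5 h they ran from -0.078 to 0.14 for Zp1, -0.13 to 0.33 for Zp3, -0.78 to 0.24 for Gdf9 and -0.42 to 1.24 for Bmp6. At 4 h they ran from -0.21 to 0.010 for Zp2, -0.32 to 0.14 for Zp3, -0.51 to 0.51 for Gdf9, -1.60 to 0.66 for Oosp1, -1.29 to 0.36 for Fgf8 and -0.33 to 1.34 for Bmp6. At 6 h they ran from -0.11 to 0.11 for Zp2, -0.030 to 0.99 for Gdf9, -2.02 to 0.25 for Oosp1, -0.73 to 0.62 for Fgf8 and -0.91 to 0.76 for Bmp6. Late against early at 0.5 Gy, the ranges were -0.12 to 0.15 for Zp3, -0.20 to 0.14 for Gdf9, -0.66 to 0.077 for Fgf8, -1.09 to 0.077 for Grem1, -0.30 to 0.071 for Kdr, -0.15 to 0.19 for Pecam1 and -3.22 to 0.068 for S100a9. At 0.2 Gy they were -0.051 to 0.29 for Zp3 and -0.72 to 0.61 for Fgf8, and in the difference between doses -0.044 to 0.30 for Zp3 and -0.59 to 0.73 for Fgf8. Between the second and the first generation they were -0.00012 to 0.44 for Zp3, -0.33 to 0.43 for Gdf9, -1.05 to 0.73 for Oosp1 and -0.20 to 0.82 for Fgf8, and between the third and the others -0.26 to 0.022 for Zp2, -0.14 to 0.054 for Zp3, -0.53 to 0.32 for Bmp15 and -0.78 to 0.21 for Oosp1. Leaving out the single library of 2.5 or 6 h at 0.5 Gy gave no value for that time. Over all genes, the calls ranged from 0 to 4, 0 to 7, 0 to 10 and 0 to 6 at 1, 2.5, 4 and 6 h, 10 to 37 late against early at 0.5 Gy, 1 to 18 at 0.2 Gy, 0 to 13 in the difference between doses, 18 to 40 between the second and the first generation and 1 to 50 in the third.

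The deviations of equally numbered libraries from their group means had a correlation of 0.13, 0.08 and 0.11 between the times over 28493 genes, which did not pass 0.1 for every pair. The labels tie the number to a generation and do not say what a generation is. Since 44 genes were called between the first and the second, values with generation as a term stand beside the time comparisons above. With the replicate block, the generation as a term, edgeR called 0, 1, 6 and 7 genes at 1, 2.5, 4 and 6 h in place of 0, 18 in place of 29 late against early at 0.5 Gy, 15 in place of 13 at 0.2 Gy and 13 in place of 9 in the difference between doses, and none of the 8 genes in any. With the block, Gdf9 was at -0.0078 at 1 h, Zp1 at -0.16 and Zp3 at -0.026 at 2.5 h, Bmp6 at 0.10 at 6 h and Pecam1 at 0.0078 late against early. Depth limited Fgf8 most, with 7 to 61 reads a library.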

Other observations

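Some single genes of the lists, chosen after their values were seen, lay close to the secreted factors across the 13 libraries. Gdf9 had r = 0.86 with H1foo, the oocyte linker histone gene, and 0.87 with Npm2, a histone chaperone gene of oocytes. Oosp1 had r = 0.87 with Bcl2l10, 0.78 with H1foo, 0.86 with its relative Oosp3 and 0.88 with Spry4, a feedback inhibitor gene of FGF signalling. Bmp15 had r = 0.87 with Fshr, the follicle-stimulating hormone receptor gene of granulosa cells, 0.73 with Oosp3 and -0.75 with Fgfr3. These values are descriptions with no test, picked from many such values.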
